A study of Homo sapiens with 18 samples.

Results

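Gene expression in PC3 cells given a wild-type BC-box peptide was compared with that in PC3 cells given a scrambled peptide. PC3 is an established human prostate cancer cell line that lacks p53 protein. The comparison used 6 of the 18 RNA-seq libraries of the study, namely 3 labelled WT peptide and 3 labelled Scrambled peptide. Its members were all 13105 genes with a mean normalised count of at least 10 over the 9 libraries of the peptide experiment, out of 20365 genes in the table and 17320 with at least 1 read. The remaining 3 peptide libraries were labelled Mutant peptide. They entered the fit and serve below for comparison. In every peptide group the dose was 12500 nM, the exposure lasted 24 h and the medium held 2.5% fetal calf serum. The other 9 libraries came from PC3 cells with lentiviral hairpins, labelled EloB KD and EloC KD for those against the genes of Elongin B and C and Control KD for the control, in medium with 10% serum. The labels give neither the peptide sequences nor the change in the mutant. Nor do they tell if the replicates came from independent cultures, and the p-values therefore measure only the spread between these libraries, which may be technical.

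Elongin B and Elongin C form a stable heterodimer. The BC-box is a short helical stretch with which many proteins dock onto Elongin C. Substrate receptors such as VHL and the SOCS box proteins use it to join ubiquitin ligases built on the cullins CUL2 or CUL5, and Elongin A uses it in the Elongin complex, which helps RNA polymerase II to elongate transcripts. VHL is the receptor through which hydroxylated HIF alpha subunits are degraded. A peptide with a BC-box sequence can in principle compete for that docking surface, while a scrambled peptide serves as the control for peptide exposure.

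The 9 peptide libraries held 31671205 to 34699856 assigned reads each, and 13054 to 13252 genes had at least 10 reads. Libraries with the same replicate number resembled each other across treatments. The first principal component held 44.0% of the variance and set replicate 2 of every group apart from replicates 1 and 3. Replicate 2 also had the highest share of reads from mitochondrially encoded genes in each group, at 4.82% with the WT peptide, 4.69% with the scrambled peptide and 4.29% with the mutant. In the other 6 libraries that share was 3.32% to 4.03%. What set replicate 2 apart was not tested. Replicate number was therefore kept as a term in the model, and counts are also given without each replicate number where they moved. For WT against scrambled peptide, an adjusted p without the replicate term stands beside each value whose call it ended. The same holds for an adjusted p without a named library, such as WT 1 (WT replicate 1). Without the replicate term limma called 0 genes in either comparison with the mutant peptide, so a p without that term is not printed there.

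The WT peptide changed many genes by small amounts. Of the 13105 genes tested, 2122 passed an adjusted p of 0.05 in limma, a share of 16.2%. Of these, 1043 were higher with the WT peptide (7.96% of genes tested) and 1079 lower (8.23%). The median size of the change among called genes was 0.20 on the log2 scale, against 0.080 over all genes tested, and the median signed change over all genes was 0.00011. A change of at least 1.5-fold was reached by 131 called genes (1% of genes tested), 38 upwards and 93 downwards, while 31 reached 2-fold. In 2102 of the 2122 genes the change had the same direction in all 3 replicate pairs. The 3 WT and 3 scrambled levels did not overlap for 1360 called genes (64.1% of them) and for 2579 of the genes tested (19.7%). With no replicate term 188 genes were called (1.43%), 110 higher (0.839%) and 78 lower (0.595%), and all 188 were among the 2122. Leaving out replicate 2 of all groups left 730 calls, leaving out replicate 1 left 1050, and leaving out replicate 3 gave 2124. The authors' deposited table for this comparison called 506 genes, 271 higher and 235 lower, all of them among the 2122 and none in the opposite direction. Fold changes are differences of log2 of the normalised count plus 1, WT minus scrambled unless another pair is named, and understate the change of genes with low counts.

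**Figure D1:**
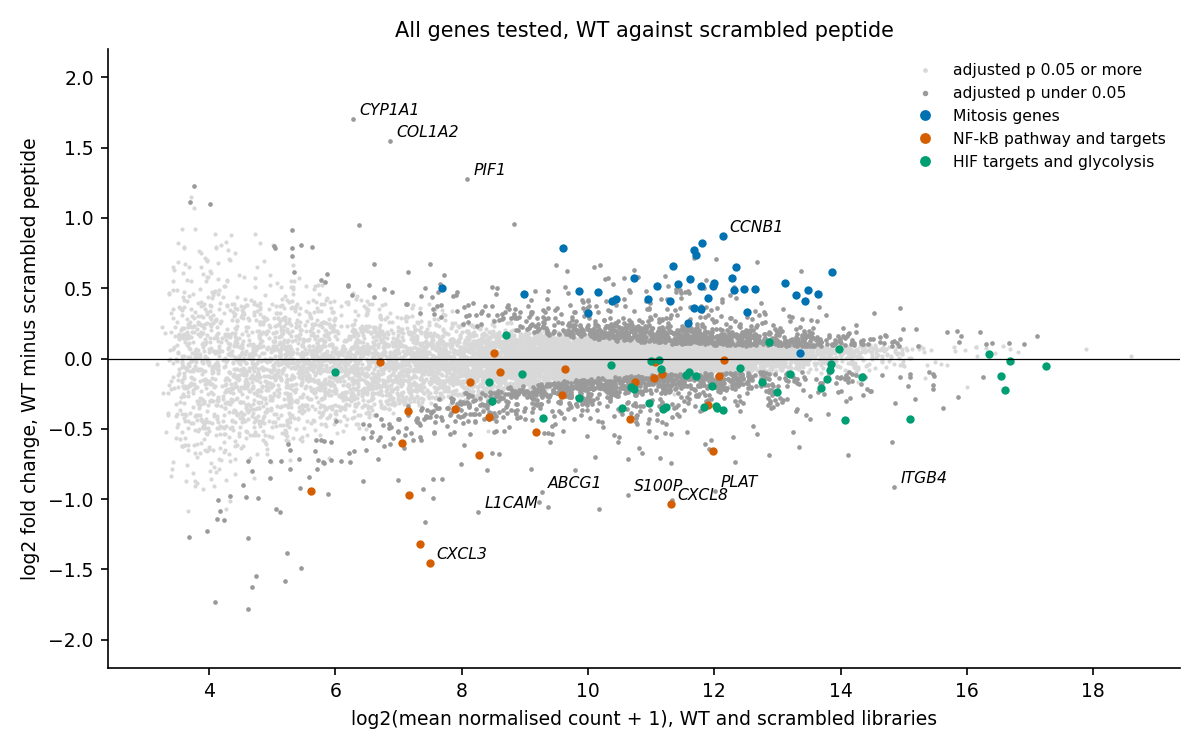
Each point is 1 of 13105 genes, with the log2 mean normalised count of the gene on the x axis and the log2 fold change of WT over scrambled peptide on the y axis. Called genes are dark grey, and the mitosis (blue), NF-kB (orange) and HIF (green) lists are marked. The blue points lie above 0, while most orange and green points lie below it.

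Genes of the Elongin subunits themselves were not called. The ELOB level was 3694, 3869 and 3575 normalised counts in WT replicates 1, 2 and 3 and 3465, 3619 and 3803 in scrambled replicates 1, 2 and 3, which is the order of values throughout. These groups overlapped, and the log2 fold change was 0.033 with SE 0.042 (adjusted p = 0.654). The ELOC change was 0.065 (adjusted p = 0.235), and that of ELOA, the gene of the BC-box subunit of the Elongin elongation complex, −0.06 (adjusted p = 0.196). For comparison, the log2 fold change of ELOB was −2.82 in EloB KD and that of ELOC −3.12 in EloC KD, each against Control KD. Of 15 tested genes of the Elongin dimer, its cullins CUL2 and CUL5 and their partners such as RBX1 and RNF7, limma called 0, edgeR 0 and DESeq2 0 with the replicate term, and 1 passed an unadjusted p of 0.05. Without replicate 3, limma called 1 of them.

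The genes of BC-box substrate receptors moved little. Of 43 tested, 2 were called higher and 4 lower, or 14% against 16.2% of all genes, and the median change was 0.0051. LRR1 and FEM1A, both CUL2 receptors, changed by 0.18 (adjusted p = 0.0184 and 0.197 without the replicate term, and 0.064 to 0.128 without WT 1, WT 2, scrambled 1 or scrambled 2) and 0.11 (adjusted p = 0.0345 and 0.298 without the replicate term, and 0.0588 to 0.166 without WT 1, WT 3, scrambled 1, scrambled 2 or scrambled 3). The lower genes were RAB40B at −0.25 (adjusted p = 0.0186 and 0.208 without the replicate term, and 0.0556 to 0.0953 without WT 1, WT 2, scrambled 1, scrambled 2 or scrambled 3), ASB13 at −0.15 (adjusted p = 0.0459 and 0.374 without the replicate term, and 0.0897 to 0.214 without WT 1, WT 2, scrambled 1, scrambled 2 or scrambled 3), KLHDC2 at −0.14 (adjusted p = 0.0217 and 0.367 without the replicate term, and 0.0549 to 0.105 without WT 1, WT 2, scrambled 1, scrambled 2 or scrambled 3) and ZER1 at −0.14 (adjusted p = 0.0264 and 0.552 without the replicate term, and 0.0652 to 0.177 without WT 1, scrambled 1 or scrambled 3). KLHDC2 and ZER1 recognise degrons at protein ends. DESeq2 called 1 member of the list, higher, and without replicate 2 limma called 0. VHL had 3611, 3868 and 3551 normalised counts with the WT peptide and 3630.1, 3933 and 3568 with the scrambled peptide, which overlapped, with a log2 fold change of −0.013 (adjusted p = 0.855). Among 30 genes of RNA polymerase II elongation factors, TCEA2 at 0.19 (adjusted p = 0.0221 and 0.204 without the replicate term, and 0.0545 to 0.0954 without WT 1, WT 3, scrambled 1, scrambled 2 or scrambled 3) and WDR61 at 0.12 (adjusted p = 0.0452 and 0.266 without the replicate term, and 0.0768 to 0.174 without WT 1, WT 2, WT 3, scrambled 1, scrambled 2 or scrambled 3) were called higher and ELL at −0.16 (adjusted p = 0.029 and 0.192 without the replicate term, and 0.0576 to 0.161 without WT 1, WT 2, scrambled 1, scrambled 2 or scrambled 3) lower. The called share of this list was 10%, against 16.2% of all genes. Without replicate 1, and without replicate 2, limma called 0 of these genes.

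**Figure D2:**
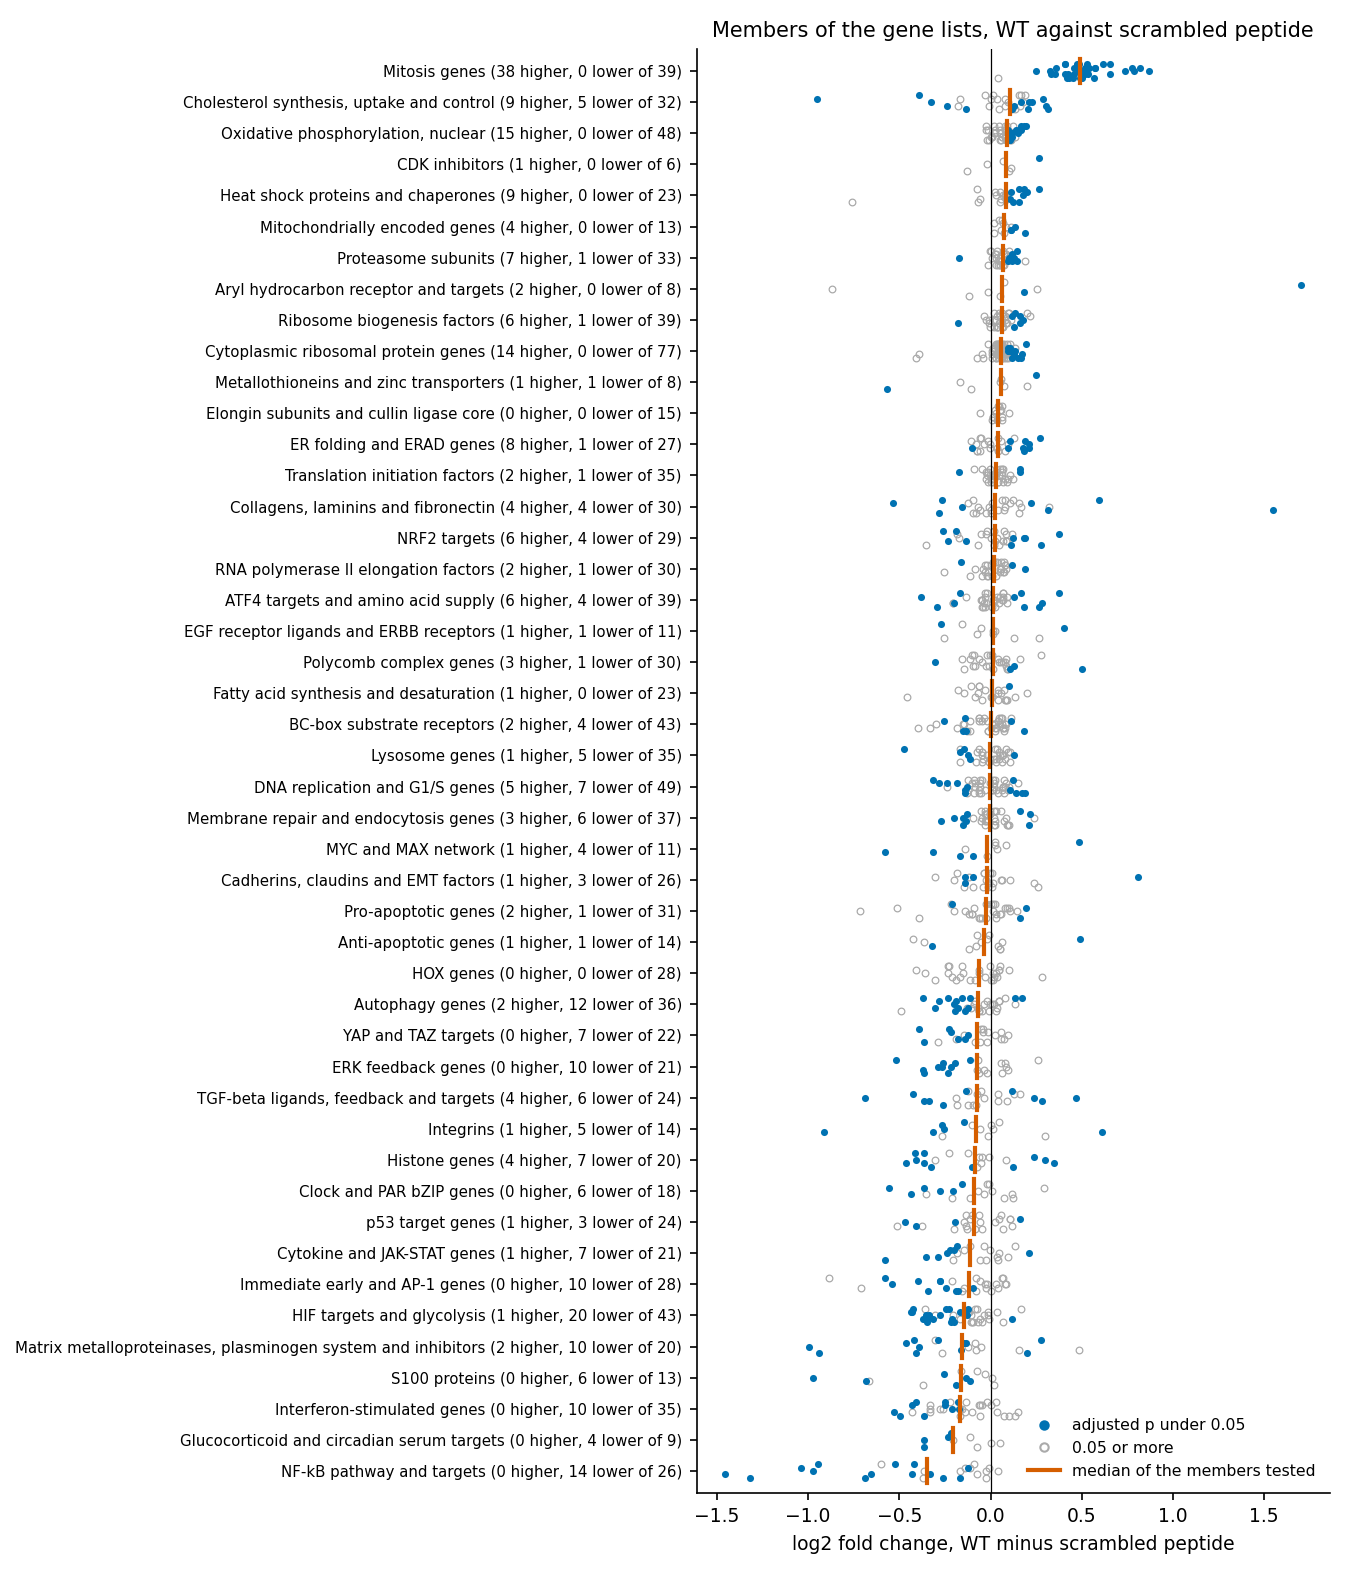
Each dot is a tested member of a gene list, placed by its log2 fold change of WT over scrambled peptide, with a bar at the list's median and the counts of members called higher and lower beside each list name. The mitosis list lies furthest to the right, with 38 of 39 members called higher and a median of 0.49.

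Mitosis genes formed the most uniform group. Of 39 genes for the kinases, cyclins, kinesins, centromere proteins and checkpoint proteins that carry cells through mitosis, 38 were higher with the WT peptide, or 97.4% against 7.96% of all genes tested, and 0 were lower. The list's median change was 0.49. The exception was CDC25B, named after its values were seen, at 0.041 (adjusted p = 0.437). In 37 of the 39 genes all 3 WT levels lay above all 3 scrambled levels, where 19.7% of all genes tested had groups without overlap in either direction. In bulk RNA a larger share of cells in mitosis and more of these transcripts per cell cannot be told apart.

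CCNB1 encodes cyclin B1, the partner of CDK1 that drives entry into mitosis. Its level was 5676, 5976 and 5797 normalised counts in the WT libraries, 3483, 2819 and 3290.4 in the scrambled and 3976, 4120.5 and 4332 in the mutant libraries. The WT and scrambled levels did not overlap, and the mutant levels lay between them (log2 fold change 0.87, SE 0.056, adjusted p = 2.59e-07 for WT against scrambled). PLK1, the polo-like kinase of centrosome maturation and spindle assembly, had 4155, 4111 and 4274 with WT and 2644, 2247 and 2642 with scrambled peptide, and 3125, 3072 and 3099 with the mutant. Again all WT levels were above all mutant levels, and these above all scrambled levels (log2 fold change 0.74, SE 0.044, adjusted p = 1.8e-07). KIF20A, a kinesin of cytokinesis, had 4178, 4144 and 4137 and 2676, 2211 and 2424, with 3254, 3047 and 3318 in the mutant libraries, in the same order of groups (log2 fold change 0.77, SE 0.044, adjusted p = 1.8e-07). CENPE, the kinetochore motor that aligns chromosomes, had 4627, 4231 and 4852 against 2861, 2181 and 2772, with no overlap (log2 fold change 0.82, SE 0.057, adjusted p = 4.47e-07). CENPA, the histone variant that marks centromeres, had 977, 927 and 1049 against 607, 479.5 and 637 and also did not overlap (log2 fold change 0.78, SE 0.072, adjusted p = 4.9e-06).

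TOP2A, the topoisomerase that untangles sister chromatids, had 18155, 16890.3 and 18840.4 with the WT peptide and 12641, 10453 and 12073 with the scrambled peptide (log2 fold change 0.62, SE 0.038, adjusted p = 1.8e-07). KIF4A, a kinesin of chromosome structure and the central spindle, changed by 0.54 (adjusted p = 2.04e-07), and BIRC5, which encodes survivin of the chromosomal passenger complex, by 0.49 (adjusted p = 2.19e-07). The scrambled replicate 2 library was lowest of its group for CCNB1, PLK1, KIF20A, CENPE, CENPA, TOP2A, KIF4A and BIRC5, while WT replicate 2 was the highest WT library for CCNB1. With replicate 2 of all groups left out, 38 mitosis genes remained called higher, and the count was also 38 without replicate 1, without replicate 3 and with edgeR or DESeq2. Without the replicate term it was 31.

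**Figure D3:**
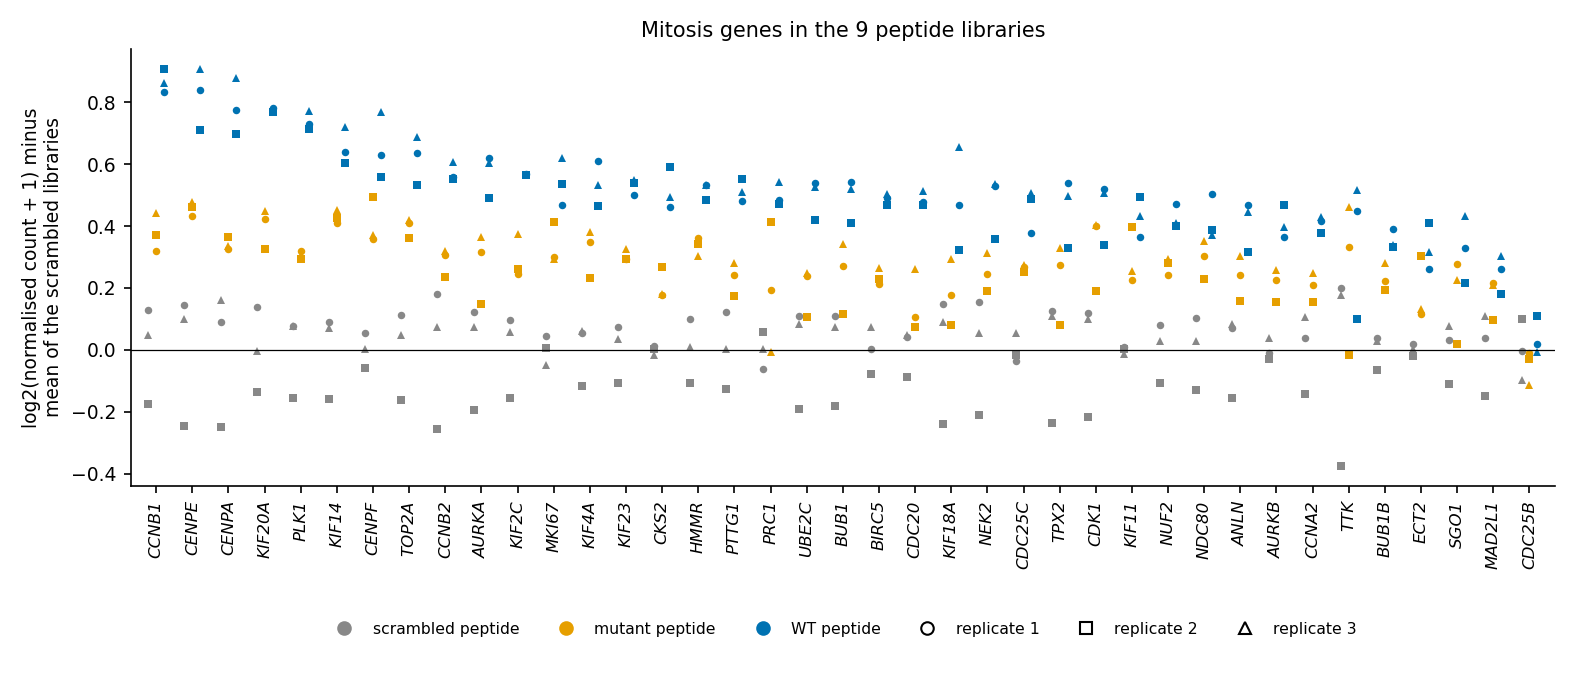
For each mitosis gene, the points are the 9 libraries (grey scrambled, orange mutant, blue WT; circle, square and triangle for replicates 1, 2 and 3), placed by log2 of the normalised count plus 1 minus the mean of the scrambled libraries. In 38 of the 39 genes the mutant mean lies between the scrambled and the WT mean.

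The regulatory sequences of mitosis genes are known to share short elements, the CCAAT box bound by NF-Y and the cell cycle homology region bound by the MuvB complexes, so promoters of 4 genes are shown. These are the 5 mitosis genes with the largest fold changes except CENPE, whose window held none of the letters searched. Each is the 250 bases before a RefSeq transcript start on GRCh38.p14, 5′ to 3′ along the gene's strand, with matches in capitals. RefSeq starts can differ from the outer ends of GENCODE gene models. CCNB1 (promoter at chr5:69166900-69167149; gene on chromosome 5, 69167010 to 69178245, plus strand) carries CCAAT at 87 and 55 bases before the start. PLK1 (chr16:23678639-23678888; gene on chromosome 16, 23677656 to 23690367, plus strand) has CCAAT at 73 and TTTGAA at 29. CENPA (chr2:26785806-26786055; gene on chromosome 2, 26764289 to 26801067, plus strand) has ATTGG, which is CCAAT on the other strand, at 205 and 130, and TTTGAA at 18. KIF20A (chr5:138178862-138179111; gene on chromosome 5, 138178719 to 138187715, plus strand) has ATTGG at 94 and 67. All 4 promoters are on the plus strand.
CCNB1: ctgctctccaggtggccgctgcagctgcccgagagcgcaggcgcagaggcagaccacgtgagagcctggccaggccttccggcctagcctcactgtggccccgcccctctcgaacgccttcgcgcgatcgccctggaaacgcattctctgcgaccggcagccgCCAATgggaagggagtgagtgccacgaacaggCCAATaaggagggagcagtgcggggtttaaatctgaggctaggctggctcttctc
PLK1: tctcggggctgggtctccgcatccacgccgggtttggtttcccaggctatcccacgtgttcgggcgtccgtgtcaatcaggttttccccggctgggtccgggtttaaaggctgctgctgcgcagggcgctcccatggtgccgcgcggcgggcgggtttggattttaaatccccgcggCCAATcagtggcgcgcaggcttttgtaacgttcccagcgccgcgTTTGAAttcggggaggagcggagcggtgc
CENPA: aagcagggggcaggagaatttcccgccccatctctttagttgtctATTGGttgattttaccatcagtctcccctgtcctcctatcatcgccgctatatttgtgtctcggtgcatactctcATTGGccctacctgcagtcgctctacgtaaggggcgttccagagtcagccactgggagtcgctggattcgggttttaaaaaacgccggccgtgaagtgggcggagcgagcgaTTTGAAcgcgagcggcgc
KIF20A: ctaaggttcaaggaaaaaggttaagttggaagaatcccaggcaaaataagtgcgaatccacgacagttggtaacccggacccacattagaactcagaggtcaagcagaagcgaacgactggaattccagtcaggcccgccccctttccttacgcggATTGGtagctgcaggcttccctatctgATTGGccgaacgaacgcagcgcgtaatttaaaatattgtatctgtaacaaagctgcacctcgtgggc

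Both strands were searched, and the letters searched do not overlap each other. A promoter was found for 34 of the 39 mitosis genes. CCAAT occurred in 26 of them (76.5%), against 35.2% of the 10551 promoters of genes tested and 33.0% of all 27305 promoters in the table. The letters of the cell cycle homology region, TTTGAA or TTCGAA, occurred in 17 (50%), against 9.67% of genes tested and 14.6% of all promoters. Both kinds occurred in 15 promoters (44.1%), against 4.07% of genes tested and 5.24% of all promoters. In the promoters of the DNA replication genes described next, TTTGAA or TTCGAA occurred in 2 of 42 (4.76%). CCAAT occurred in 22 of these 42 (52.4%), also above the 35.2% of genes tested. Such a match is a description of the sequence and not a measured binding site.

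Genes of DNA replication and entry into S phase did not follow the mitosis genes. Of 49 tested, 5 were higher and 7 lower (24.5% called, against 16.2% of all genes), with a median change of −0.0041. MCM6, a subunit of the replicative helicase, had 7979, 7619 and 7262 with the WT peptide and 9175, 9279 and 9347 with the scrambled peptide, and the groups did not overlap (log2 fold change −0.28, SE 0.04, adjusted p = 0.000248). The transcription factor genes E2F1 and E2F2 changed by −0.24 (adjusted p = 0.000767 and 0.0555 without the replicate term) and −0.32 (adjusted p = 0.00236 and 0.0884 without the replicate term, and 0.075 without replicate 2), whereas E2F7, a repressor of the same family, changed by 0.19 (adjusted p = 0.00215 and 0.449 without the replicate term). With no replicate term 0 genes of this list were called higher and 1 lower by limma, and without replicate 2 there were 2 in each direction.

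Histone genes changed in both directions. Of 20 tested, 4 were higher and 7 lower (55% called, against 16.2% of all genes). The 4 higher genes encode the variants H2AZ1, H2AZ2, H2AX and MACROH2A1, of which H2AX and MACROH2A1 are named after their values were seen, at 0.35 (adjusted p = 0.0032 and 0.12 without the replicate term, and 0.0517 without scrambled 2) and 0.12 (adjusted p = 0.0176 and 0.179 without the replicate term, and 0.0832 to 0.104 without WT 1, WT 2, scrambled 1 or scrambled 2). H2AZ1 and H2AZ2, which are made outside S phase as well, changed by 0.30 (adjusted p = 1.81e-05 and 0.0987 without the replicate term) and 0.24 (adjusted p = 5.11e-05 and 0.111 without the replicate term). Among genes of linker and core histones, H1-2 had 1580.1, 1276 and 1597 against 2159.6, 2058 and 1906, with no overlap (log2 fold change −0.46, SE 0.063, adjusted p = 0.000184 and 0.0765 without the replicate term), and H2AC6 had 869, 901 and 878 against 1106, 1163 and 1141 (log2 fold change −0.36, SE 0.058, adjusted p = 0.000691 and 0.0534 without the replicate term). Replicative histone genes are near-identical copies of each other and most of their transcripts lack a poly(A) tail, so their counts in poly(A) libraries are uncertain. Without the replicate term limma called 0 histone genes, with 10 past an unadjusted p of 0.05. Of the 6 CDK inhibitor genes tested, only CDKN2C, encoding p18, was called (16.7%, against 16.2% of all genes). Its change was 0.26 (adjusted p = 0.00219 and 0.158 without the replicate term, and 0.0662 without replicate 2). The level of CDKN1A, encoding p21, changed by −0.13 (adjusted p = 0.0646).

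Polycomb genes gave 3 higher and 1 lower call among 30 (13.3% called, against 16.2% of all genes). PHF19, which encodes an accessory protein of Polycomb repressive complex PRC2, had 4062, 4435 and 4338 with WT, 3359.9, 3668 and 3535 with mutant and 2957, 2879 and 3224 with scrambled peptide. The 3 groups did not overlap (log2 fold change 0.50, SE 0.041, adjusted p = 1.44e-06). EZH2, the PRC2 methyltransferase, changed by 0.13 (adjusted p = 0.0215 and 0.322 without the replicate term, and 0.0552 to 0.112 without WT 1, WT 2, scrambled 1 or scrambled 3). RBBP7 changed by 0.11 (adjusted p = 0.0292 and 0.696 without the replicate term, and 0.102 to 0.21 without WT 1, WT 2, scrambled 1 or scrambled 2) and CBX7 by −0.30 (adjusted p = 0.00267 and 0.213 without the replicate term). Of 28 HOX genes, which are classical Polycomb targets, limma, edgeR and DESeq2 called 0 with the replicate term, and 3 passed an unadjusted p of 0.05, all of them lower.

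Genes of NF-kB signalling moved the other way. NF-kB is the transcription factor family that switches on chemokines and inflammatory cytokines, and PC3 cells make several of these. Of 26 genes tested, 14 were lower with the WT peptide (53.8% against 8.23% of all genes tested) and 0 higher, with a median change of −0.35. The chemokine genes CXCL3, CXCL2 and CXCL8, which attract neutrophils, fell most. CXCL3 had 116, 79.9 and 85.6 normalised counts in the WT libraries, 361, 176 and 262 in the scrambled and 113, 84.7 and 85.1 in the mutant libraries. All WT and mutant levels lay below all scrambled levels (log2 fold change −1.45, SE 0.13, adjusted p = 3.57e-06). CXCL8, encoding interleukin 8, had 1769, 1539 and 1569 with WT, 4751, 2243 and 3462 with scrambled and 1685, 1414 and 1499 with mutant peptide. All WT and mutant levels lay below all scrambled levels, among which replicate 2 was the lowest (log2 fold change −1.04, SE 0.11, adjusted p = 2.57e-05 and 0.0534 without the replicate term). CXCL2 had 84.0, 83.1 and 97.8 against 339, 139 and 228, also with scrambled replicate 2 lowest (log2 fold change −1.32, SE 0.18, adjusted p = 0.000175 and 0.0576 without the replicate term). CXCL2 and CXCL3 are near-identical paralogs, and reads may be split between them.

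TRAF1, an adaptor of tumour necrosis factor receptors, had 111, 55.4 and 118 with WT and 278, 115 and 175 with scrambled peptide. These groups overlapped, since replicate 2 was low in both (log2 fold change −0.97, SE 0.15, adjusted p = 0.000411 and 0.29 without the replicate term). IL1B, encoding interleukin 1 beta, had 3456, 3194 and 2779.7 against 5298, 4855 and 4679, with no overlap (log2 fold change −0.66, SE 0.047, adjusted p = 5.08e-07). TNIP1, an inhibitor of NF-kB signalling, had 3476, 3482 and 3177 against 4560.3, 4238 and 3985 (log2 fold change −0.33, SE 0.034, adjusted p = 1.05e-05 and 0.058 without the replicate term). IL6 and TNFAIP3, named after their values were seen, changed by −0.94 (adjusted p = 0.00609 and 0.148 without the replicate term) and −0.69 (adjusted p = 0.00073 and 0.0799 without the replicate term). The NF-kB subunit genes RELA and NFKB1, also named after their values were seen, changed by −0.13 (adjusted p = 0.0213 and 0.19 without the replicate term, and 0.082 to 0.174 without WT 1, WT 2 or scrambled 2) and −0.023 (adjusted p = 0.75). With no replicate term the list had 2 lower calls, and without replicate 1 it had 10. Without replicate 2, whose scrambled library was low for the chemokines, it had 14.

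**Figure D4:**
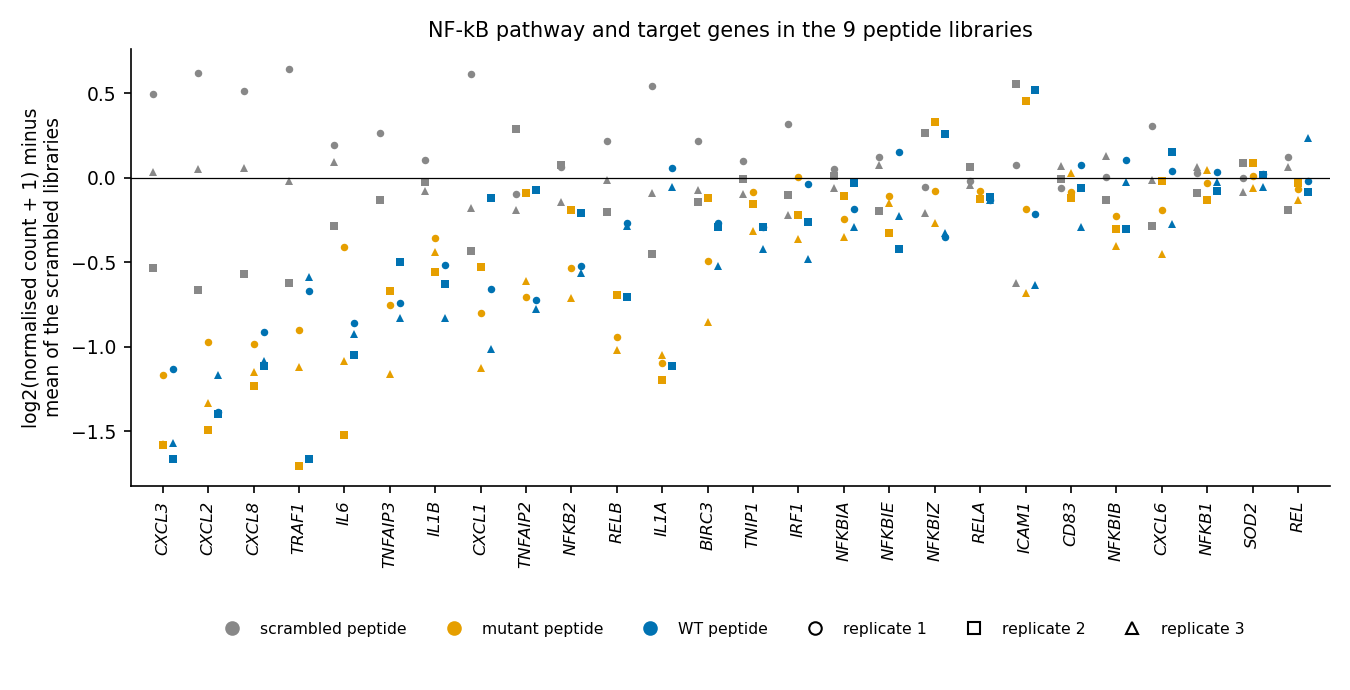
For each gene of the NF-kB list, the points are the 9 libraries (grey scrambled, orange mutant, blue WT; circle, square and triangle for replicates 1, 2 and 3), placed by log2 of the normalised count plus 1 minus the mean of the scrambled libraries. WT and mutant points lie together below the scrambled points for CXCL3, CXCL2 and CXCL8, and the scrambled square (replicate 2) is the lowest scrambled point for these 3 genes.

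The promoters of the 3 chemokine genes are shown because each holds a match to the kB letters GGAANTTCC, in capitals, from the same RefSeq table. CXCL2 (chr4:74099196-74099445, minus strand; gene on chromosome 4, 74097035 to 74099293, minus strand) has it at 77 bases before the start. CXCL3 (chr4:74038690-74038939, minus strand; gene on chromosome 4, 74036589 to 74038807, minus strand) has it at 78, and CXCL8 (chr4:73740319-73740568, plus strand; gene on chromosome 4, 73740506 to 73743716, plus strand) at 91.
CXCL2: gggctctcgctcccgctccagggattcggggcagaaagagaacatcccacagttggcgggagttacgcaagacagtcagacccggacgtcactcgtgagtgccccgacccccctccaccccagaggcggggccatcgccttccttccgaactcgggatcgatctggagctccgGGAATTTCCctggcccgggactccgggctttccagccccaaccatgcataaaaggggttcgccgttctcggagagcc
CXCL3: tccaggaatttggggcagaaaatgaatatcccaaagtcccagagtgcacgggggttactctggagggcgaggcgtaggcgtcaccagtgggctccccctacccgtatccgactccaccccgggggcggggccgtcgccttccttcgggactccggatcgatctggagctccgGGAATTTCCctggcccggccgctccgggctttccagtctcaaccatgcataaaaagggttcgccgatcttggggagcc
CXCL8: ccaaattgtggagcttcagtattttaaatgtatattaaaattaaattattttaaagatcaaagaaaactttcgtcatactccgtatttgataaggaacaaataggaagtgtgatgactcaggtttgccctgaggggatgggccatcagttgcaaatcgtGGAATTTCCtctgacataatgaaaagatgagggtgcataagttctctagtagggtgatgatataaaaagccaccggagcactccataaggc
Of 24 promoters of the NF-kB list, 10 held this match on either strand (41.7%), against 0.862% of promoters of genes tested and 0.831% of all promoters. The list was made of genes of the NF-kB pathway and its known targets. The letters were narrowed after a looser form matched most promoters. The share therefore describes the sequences and tests nothing about the peptide.

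Markers of other cell types were looked at beside these genes. All 8 markers of PC3 cells, most of them epithelial with the mesenchymal marker VIM among them, were above the minimum of 10, and of these KRT19, CD44 and VIM were called lower, at −0.30 (adjusted p = 0.000205 and 0.104 without the replicate term), −0.14 (adjusted p = 0.00585 and 0.424 without the replicate term, and 0.0562 without scrambled 2) and −0.094 (adjusted p = 0.0299 and 0.487 without the replicate term, and 0.0866 to 0.153 without WT 1, WT 2, scrambled 1, scrambled 2 or scrambled 3). Of 10 leukocyte markers CD68, LYZ and CSF1R passed the minimum, LYZ at 22.5 to 85.1 and CSF1R at 5.77 to 15.8, and neither of the latter was called (adjusted p = 0.145 and 0.755). The other 7 were below a count of 10 in all 9 libraries, and MS4A1 was at 0. The summed leukocyte level was 1660.3 to 1978 with the WT peptide and 2529 to 2798 with the scrambled peptide, nearly all of it from CD68, a lysosomal protein gene, at 1618, 1925 and 1678 against 2451, 2726 and 2498 (log2 fold change −0.56, SE 0.041, adjusted p = 6.88e-07). Among luminal prostate markers, KLK2, KLK3 and FOLH1 were at 0 in all 9 libraries, and KLK4 and TMPRSS2 were below 10. STEAP2, SLC45A3, ACP3 and HOXB13 were above the minimum and were not called (adjusted p = 0.0603, 0.963, 0.877 and 0.741), with HOXB13 at 7823 to 12379. Of 6 endothelial markers, CDH5 and VWF were below 10 in all libraries, while PECAM1 and KDR were called lower at −0.43 (adjusted p = 0.000156 and 0.0822 without the replicate term) and −0.21 (adjusted p = 0.0271 and 0.862 without the replicate term, and 0.0732 to 0.185 without WT 1, WT 2, scrambled 1 or scrambled 2). TEK and CLDN5 were not called (adjusted p = 0.782 and 0.418). The part of these genes in the NF-kB and other results was not tested.

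Hypoxia-responsive genes fell modestly. HIF is the factor that VHL targets for degradation, and its targets include genes of glucose uptake, glycolysis and mitophagy. Of 43 HIF targets and glycolysis genes, 20 were lower (46.5% against 8.23% of all genes) and 1 higher, with a median change of −0.15. The higher gene was PFKM, a phosphofructokinase gene named after its value was seen, at 0.12 (adjusted p = 0.0208 and 0.224 without the replicate term, and 0.0512 to 0.114 without WT 1, WT 2, scrambled 1, scrambled 2 or scrambled 3). BHLHE40, a transcriptional repressor, had 14379.5, 15659 and 13831 with WT, 22059.5, 20388 and 17233 with scrambled and 20031, 17287 and 15977 with mutant peptide (log2 fold change −0.44, SE 0.051, adjusted p = 4.12e-05 and 0.0803 without the replicate term). PDK1, the kinase that restrains pyruvate entry into mitochondria, had 2046, 2171 and 2148 against 3116, 2613 and 2409.9 (log2 fold change −0.35, SE 0.061, adjusted p = 0.00146 and 0.109 without the replicate term). All WT levels of these 2 genes lay below all scrambled levels. MXI1, an antagonist of MYC, changed by −0.32 (adjusted p = 0.000864 and 0.403 without the replicate term), and BNIP3L, a mitophagy receptor, by −0.35 (adjusted p = 0.00216 and 0.102 without the replicate term). HIF1A, EPAS1 and VEGFA, named after their values were seen, changed by 0.068, −0.0089 and −0.12 (adjusted p = 0.116, 0.916 and 0.141). The count of lower genes was 8 without replicate 1, 8 without replicate 2 and 26 without replicate 3. Without the replicate term limma and edgeR called 0, and DESeq2 with the term called 15. The letters ACGTG of hypoxia response elements occurred in 17 of 39 promoters of the list (43.6%), against 23.1% of those of genes tested. They also occurred in 13 of 34 promoters of the mitosis list (38.2%), whose genes rose. The DNA replication list had 10 of 42 (23.8%) and the NF-kB list 2 of 24 (8.33%).

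Feedback genes of ERK signalling and immediate early genes fell in part. Of 21 ERK feedback genes, 10 were lower and 0 higher (47.6% called, against 16.2% of all genes). DUSP6, the phosphatase that inactivates ERK, had 8149.9, 8383 and 7372 with WT and 13242, 11596 and 9689 with scrambled peptide. The groups did not overlap (log2 fold change −0.52, SE 0.048, adjusted p = 4.55e-06 and 0.0859 without the replicate term). SPRY1, DUSP4 and ERRFI1, further brakes on receptor tyrosine kinase signalling, changed by −0.29 (adjusted p = 8.86e-05), −0.26 (adjusted p = 0.000127 and 0.12 without the replicate term) and −0.23 (adjusted p = 0.000363 and 0.24 without the replicate term). Among 11 genes of EGF receptor ligands and ERBB receptors, 1 was higher and 1 lower (18.2% called, against 16.2% of all genes). AREG (amphiregulin) rose by 0.40 (adjusted p = 0.000873) and ERBB2 fell, at −0.27 (adjusted p = 0.00281 and 0.135 without the replicate term). Of 28 immediate early and AP-1 genes, 10 were lower and 0 higher (35.7% called, against 16.2% of all genes). KLF6, ATF3, MAFF and IER5 changed by −0.24 (adjusted p = 0.000187 and 0.0762 without the replicate term), −0.54 (adjusted p = 0.000197 and 0.583 without the replicate term), −0.28 (adjusted p = 0.00199 and 0.154 without the replicate term) and −0.28 (adjusted p = 0.00219 and 0.435 without the replicate term). ATF3 ran from 1227 to 2636 with WT and from 1838 to 4090.2 with scrambled peptide, low in replicate 2 of both, so the groups overlapped although each pair fell. With no replicate term limma called 2 of the ERK feedback genes and 0 of the immediate early genes, with 4 of the latter past an unadjusted p of 0.05, and without replicate 2 it called 6 and 5.

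Interferon-stimulated genes gave 10 lower and 0 higher calls among 35 (28.6% called, against 16.2% of all genes), with a median of −0.17. ISG20, a nuclease, had 1027, 1046 and 869 against 1423, 1332 and 1049.8 (log2 fold change −0.36, SE 0.057, adjusted p = 0.000597 and 0.351 without the replicate term), and the groups touched without overlapping. The antiviral synthetase genes OAS1 and OAS2 changed by −0.43 (adjusted p = 0.00146 and 0.578 without the replicate term) and −0.41 (adjusted p = 0.0024 and 0.769 without the replicate term), and SAMD9 by −0.18 (adjusted p = 0.00969 and 0.745 without the replicate term, and 0.0734 without scrambled 1). ISG20 was the only 1 of the 35 genes with all WT levels below all scrambled levels. Without the replicate term limma called 0, with 1 gene past an unadjusted p of 0.05, and without replicate 1, 2 or 3 it called 3, 6 and 15 lower. Of 21 cytokine and JAK-STAT genes, 7 were lower and 1 higher (38.1% called, and 2 lower without replicate 2). Among the lower genes, OSMR changed by −0.22 (adjusted p = 0.000496) and kept its call in every alternative. IL24, a cytokine of the interleukin 10 family, changed by −0.58 (adjusted p = 0.00725 and 0.48 without the replicate term, and 0.0593 to 0.0825 without WT 2 or scrambled 2). SOCS1, SOCS2 and SOCS3, the BC-box feedback inhibitors of JAK signalling, were not called, at −0.18, −0.14 and −0.11 (adjusted p = 0.739, 0.212 and 0.228).

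Genes for matrix breakdown and cell attachment fell more often than they rose. Among 20 matrix metalloproteinase and plasminogen genes, 10 were lower and 2 higher (60% called, against 16.2% of all genes). PLAT, encoding tissue plasminogen activator, had 2731, 3313 and 2351 with WT, 4773, 6998 and 4509.6 with scrambled and 4056, 4338 and 3606 with mutant peptide. All WT levels lay below all scrambled levels (log2 fold change −0.94, SE 0.061, adjusted p = 2.59e-07). MMP10, stromelysin 2, had 111, 120.3 and 138 against 292, 215 and 235, with no overlap (log2 fold change −0.99, SE 0.12, adjusted p = 7e-05). MMP14, which activates other metalloproteinases at the cell surface, changed by −0.29 (adjusted p = 9.21e-06), and the inhibitor gene TIMP1 by −0.39 (adjusted p = 4.73e-05 and 0.0589 without the replicate term). The 2 higher genes, named after their values were seen, were PLAU, encoding urokinase, at 0.28 (adjusted p = 0.00285 and 0.179 without the replicate term, and 0.0872 without replicate 2) and MMP1, interstitial collagenase, at 0.20 (adjusted p = 0.0279 and 0.859 without the replicate term, and 0.111 to 0.146 without WT 2, WT 3, scrambled 2 or scrambled 3). Without replicate 1 or 2 the list had 6 lower calls, and with no replicate term 4.

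Integrin genes, for receptors that tie cells to laminin and collagen, had 5 lower and 1 higher calls among 14 (42.9% called, against 16.2% of all genes). ITGB4, the laminin receptor subunit of hemidesmosomes (gene on chromosome 17, 75721328 to 75757818, plus strand), had 21156, 20918 and 19081 with WT, 43328, 42251 and 30709 with scrambled and 35288, 27189.7 and 22338 with mutant peptide. WT and scrambled levels did not overlap (log2 fold change −0.91, SE 0.07, adjusted p = 8.88e-07). ITGA10, the 1 higher gene and named after its value was seen, changed by 0.61 (adjusted p = 0.00657 and 0.126 without the replicate term, and 0.0743 without scrambled 2). ITGA2, ITGA3 and ITGA6 changed by −0.32 (adjusted p = 7.35e-06), −0.26 (adjusted p = 0.0001) and −0.14 (adjusted p = 0.00357 and 0.0799 without the replicate term, and 0.0676 to 0.0743 without replicate 1 or 2). The laminin gene LAMB3 changed by −0.53 (adjusted p = 7.11e-07 and 0.0826 without the replicate term), within a list of 30 collagen, laminin and fibronectin genes with 4 higher and 4 lower (26.7% called, and 1 and 3 without replicate 2). L1CAM, an adhesion protein of neurons and of many tumours (gene on chromosome X, 153861514 to 153886174, minus strand), had 165, 217 and 204 against 353, 473 and 425, again without overlap (log2 fold change −1.09, SE 0.11, adjusted p = 1.05e-05). CEACAM6 and CEACAM5, carcinoembryonic adhesion proteins of a family of close paralogs, changed by −1.07 (adjusted p = 1.56e-05) and −1.06 (adjusted p = 0.000118 and 0.415 without the replicate term).

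The collagen gene COL1A2 went against this. It had 126, 257 and 134 with WT, 60.02, 76.8 and 36.4 with scrambled and 141, 237 and 66.8 with mutant peptide, so that WT and scrambled levels did not overlap while the mutant levels overlapped both (log2 fold change 1.55, SE 0.19, adjusted p = 5.33e-05 and 0.155 without the replicate term). Its partner gene COL1A1 changed by 0.15 (adjusted p = 0.328). Of the 10 fibroblast markers, 6 passed the minimum. Besides the collagens above these were PDGFRA at 95.8 to 254.5 over the 9 libraries, COL3A1 at 23.0 to 44.5, ACTA2 at 24.5 to 42.0 and PDGFRB at 12.8 to 32.9, none of them called (adjusted p = 0.609, 0.363, 0.197 and 0.224). LUM had 2.9 to 18.1, below the minimum on average, while DCN, POSTN and FAP were below 10 in all 9 libraries. The summed level of the list was 546 to 954 with WT and 431 to 705 with scrambled peptide. Whether fibroblast RNA had a part in the COL1A2 change was not tested.

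Secreted and calcium-binding proteins were among the largest decreases. S100P (gene on chromosome 4, 6693069 to 6697170, plus strand) had 1064, 1189.6 and 962 with WT, 2109, 2310.0 and 1891 with scrambled and 1776, 1469 and 1654 with mutant peptide, 3 groups that did not overlap (log2 fold change −0.97, SE 0.075, adjusted p = 8.88e-07). Of 13 S100 genes, 6 were lower and 0 higher (46.2% called, against 16.2% of all genes), among them S100A2 at −0.68 (adjusted p = 7.07e-06 and 0.0871 without the replicate term), S100A6 at −0.19 (adjusted p = 0.000421 and 0.0796 without the replicate term) and S100A11 at −0.25 (adjusted p = 0.0012 and 0.0767 without the replicate term). PI3, which encodes the elastase inhibitor elafin, had 1823, 2035 and 1299 against 3499, 3922 and 2855, with no overlap (log2 fold change −1.01, SE 0.061, adjusted p = 1.8e-07). SCNN1G, a subunit of the epithelial sodium channel, and LXN, a carboxypeptidase inhibitor, changed by −1.02 (adjusted p = 1.79e-05 and 0.073 without the replicate term) and −1.16 (adjusted p = 8.24e-05 and 0.389 without the replicate term). LXN had 64.5, 175 and 73.3 and 203, 391 and 119, high in replicate 2 of both groups, so the groups overlapped although each pair fell. RINL, a guanine nucleotide exchange factor gene, changed by −0.97 (adjusted p = 0.00241 and 0.059 without the replicate term). FST, encoding the activin antagonist follistatin, and FSTL3 fell together with the activin subunit genes INHBA and INHBB, at −0.69 (adjusted p = 1.8e-07), −0.42 (adjusted p = 8.27e-05 and 0.251 without the replicate term), −0.26 (adjusted p = 2.57e-05 and 0.803 without the replicate term) and −0.34 (adjusted p = 0.000691 and 0.667 without the replicate term). The TGF-beta list they belong to had 6 lower and 4 higher calls among 24 (41.7% called, against 16.2% of all genes), and 4 lower and 1 higher without replicate 2.

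The largest increase among called genes was that of CYP1A1, the cytochrome P450 gene switched on by the aryl hydrocarbon receptor (gene on chromosome 15, 74719542 to 74725610, minus strand). It had 123, 96.9 and 131 with WT, 39.0, 26.6 and 41.4 with scrambled and 42.8, 47.1 and 42.6 with mutant peptide. The 3 WT libraries were all above the other 6 (log2 fold change 1.70, SE 0.18, adjusted p = 1.35e-05), which is 3.25-fold on the scale of counts plus 1. Of the other tested genes in the list of the receptor and its targets, NQO1 was called higher at 0.19 (adjusted p = 0.00239 and 0.363 without the replicate term), while CYP1B1, TIPARP, ALDH3A1 and AHR itself changed by 0.075, 0.05, 0.25 and −0.12 (adjusted p = 0.237, 0.346, 0.106 and 0.15). PIF1, a DNA helicase (gene on chromosome 15, 64815632 to 64825668, minus strand), had 348, 394 and 408 with WT, 228, 267 and 236 with mutant and 190.1, 130.0 and 159 with scrambled peptide, again 3 groups without overlap (log2 fold change 1.27, SE 0.12, adjusted p = 8.12e-06). Among the 15 largest increases of called genes averaging 50 or more and moving 1 way in all 3 pairs were also DLGAP5 and FAM83D. Both encode spindle proteins and are not in the mitosis list, at 0.71 (adjusted p = 1.8e-07) and 0.72 (adjusted p = 2.09e-07). PRR11, a gene of cell cycle progression, was also among these 15, at 0.69 (adjusted p = 1.8e-07). The remaining 4 were TCN1 at 0.95 (adjusted p = 0.00165 and 0.424 without the replicate term), SPTB at 0.95 (adjusted p = 0.000702 and 0.146 without the replicate term), KIF26A at 0.67 (adjusted p = 0.0181 and 0.779 without the replicate term, and 0.0543 to 0.1 without WT 1, WT 3, scrambled 1 or scrambled 3) and UTS2B at 0.67 (adjusted p = 0.00124, and up to 0.749 in the alternatives without the replicate term). The KIF26A call also ended in edgeR and DESeq2 with the replicate term. CLDN11, not among these 15, changed by 0.81 (adjusted p = 0.0191 and 0.35 without the replicate term, and 0.0753 to 0.128 without WT 1, WT 2, scrambled 1 or scrambled 2).

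Sterol genes changed in both directions. Of 32 cholesterol genes, 9 were higher and 5 lower (43.8% called, against 16.2% of all genes). SQLE, an epoxidase of cholesterol synthesis, had 5252, 6055 and 4859 with WT and 4731, 4659 and 3853 with scrambled peptide and changed by 0.29 (adjusted p = 0.000859 and 0.396 without the replicate term). The sterol exporters ABCG1 and ABCA1 fell. ABCG1 (gene on chromosome 21, 42199689 to 42297244, plus strand) had 426, 384 and 443 against 827, 674 and 943, without overlap (log2 fold change −0.95, SE 0.071, adjusted p = 7.03e-07), and ABCA1 changed by −0.33 (adjusted p = 0.00135 and 0.15 without the replicate term). The higher count of this list was 11 without replicate 1, 2 without replicate 2 and 5 without replicate 3, and with no replicate term limma called 0 higher and 1 lower.

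Some genes of ribosomes, respiration and protein folding rose by small amounts. Of 77 cytoplasmic ribosomal protein genes, 14 were higher (18.2% against 7.96% of all genes) and 0 lower, with a median of 0.057. RPL22, RPS2, RPSA and RPS23 changed by 0.19 (adjusted p = 0.0034 and 0.252 without the replicate term, and 0.0743 without replicate 2), 0.17 (adjusted p = 0.00404 and 0.239 without the replicate term, and 0.0787 without replicate 2), 0.17 (adjusted p = 0.0047 and 0.178 without the replicate term, and 0.0549 without scrambled 2) and 0.13 (adjusted p = 0.00682 and 0.151 without the replicate term, and 0.0872 to 0.0906 without replicate 1 or 2). These genes have many processed pseudogenes, so their counts are uncertain. Nuclear genes of oxidative phosphorylation gave 15 higher and 0 lower calls among 48 (31.2% called, against 16.2% of all genes), with a median of 0.088, and 4 of 13 mitochondrially encoded genes were higher (30.8% called). Among heat shock and chaperone genes 9 of 23 were higher and 0 lower (39.1% called), led by HSPE1 and HSPD1, the mitochondrial chaperonin pair, at 0.26 (adjusted p = 0.000386 and 0.0784 without the replicate term) and 0.20 (adjusted p = 0.00154 and 0.166 without the replicate term). ER folding genes had 8 higher and 1 lower among 27 (33.3% called), with HSP90B1 at 0.21 (adjusted p = 0.000734 and 0.298 without the replicate term) and CRELD2 at 0.27 (adjusted p = 0.000903 and 0.0623 without the replicate term), and proteasome subunits 7 higher and 1 lower among 33 (24.2% called). With no replicate term limma called 0 genes in each of these 6 lists, and 12 ribosomal, 11 respiratory, 0 mitochondrially encoded, 4 chaperone, 7 ER and 4 proteasome genes passed an unadjusted p of 0.05. Without replicate 2 the higher counts were 0 ribosomal, 2 respiratory, 2 mitochondrially encoded, 2 chaperone, 5 ER and 0 proteasome genes, and without replicate 3 they were 15, 17, 2, 14, 10 and 12.

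Autophagy and clock genes were among the lists with more decreases. Of 36 autophagy genes, 12 were lower and 2 higher (38.9% called, against 16.2% of all genes). ATG16L1, which places the conjugation machinery on forming autophagosomes, had 4733, 4281 and 4731 against 5697, 5317 and 5952, without overlap (log2 fold change −0.30, SE 0.04, adjusted p = 0.000121 and 0.146 without the replicate term). GABARAPL1 and PIK3C3 changed by −0.37 (adjusted p = 0.00133 and 0.0534 without the replicate term) and −0.23 (adjusted p = 0.00221 and 0.0654 without the replicate term), while ATG3 was higher at 0.17 (adjusted p = 0.00211 and 0.0894 without the replicate term), as was CALCOCO2, named after its value was seen, at 0.14 (adjusted p = 0.0191 and 0.205 without the replicate term, and 0.0709 to 0.166 without WT 1, WT 2 or scrambled 2). Among 18 clock genes, 6 were lower and 0 higher (33.3% called, against 16.2% of all genes). NR1D1, encoding the repressor REV-ERB alpha, had 1117, 1079.9 and 1285 against 1789.5, 1699.5 and 1620.1, without overlap (log2 fold change −0.56, SE 0.062, adjusted p = 2.67e-05), and the period gene PER1 changed by −0.36 (adjusted p = 0.000333 and 0.0741 without the replicate term). Without the replicate term limma called 0 autophagy genes, with 14 past an unadjusted p of 0.05, and 1 clock gene, and without replicate 2 it called 4 and 4 lower.

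Apoptosis genes, the subject named in the study's title, changed little at the RNA level at 24 h. Of 31 pro-apoptotic genes, 2 were higher and 1 lower, or 9.68% against 16.2% of all genes tested, and the median change was −0.024. BAX, which permeabilises mitochondria, had 1492, 1578 and 1657 with WT and 1458, 1376 and 1384 with scrambled peptide. The groups did not overlap (log2 fold change 0.16, SE 0.047, adjusted p = 0.029 and 0.216 without the replicate term, and 0.115 to 0.175 without WT 2, WT 3, scrambled 2 or scrambled 3). CYCS, encoding cytochrome c, changed by 0.20 (adjusted p = 0.00146 and 0.248 without the replicate term), and the death receptor gene TNFRSF1A by −0.21 (adjusted p = 0.00073 and 0.0524 without the replicate term). Larger differences in genes with low counts, such as BBC3 at −0.51 and HRK at −0.72, were not called (adjusted p = 0.0645 and 0.167). Of 14 anti-apoptotic genes, BIRC5 was the only one higher and BCL2L1, encoding BCL-XL, the only one lower (14.3% called, against 16.2% of all genes). BCL2L1 had 7349, 6983 and 7381 against 8841, 8772 and 9502, with no overlap (log2 fold change −0.32, SE 0.03, adjusted p = 5.8e-06). MCL1, BCL2 and XIAP changed by −0.022, 0.051 and 0.055 (adjusted p = 0.727, 0.665 and 0.327). Among 24 p53 target genes, 1 was higher and 3 lower (16.7% called, against 16.2% of all genes). BAX was the higher gene, and PHLDA3, PLK2 and TP53I3 were lower, at −0.47 (adjusted p = 0.0142 and 0.384 without the replicate term, and 0.0745 to 0.103 without WT 2 or scrambled 2), −0.41 (adjusted p = 0.000235) and −0.19 (adjusted p = 0.0115 and 0.113 without the replicate term, and 0.0637 to 0.0737 without scrambled 1 or scrambled 2).

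The mutant peptide gave a readout at the same dose and time. WT against mutant peptide called 536 genes (4.09%), 315 higher (2.4%) and 221 lower (1.69%), and mutant against scrambled peptide called 1088 (8.3%), 487 higher (3.72%) and 601 lower (4.59%). These 2 comparisons share libraries with that of WT against scrambled peptide, so their values are given side by side only. With no replicate term limma and edgeR called 0 genes in both. At an unadjusted p of 0.05 limma then gave 898 genes for WT against mutant and 1142 for mutant against scrambled, and edgeR 883 and 1123. Leaving out replicate 1 of all groups left 125 calls for WT against mutant, and leaving out replicate 2 left 209 for mutant against scrambled.

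By these comparisons the gene groups differed in where the mutant stood. Of the 39 mitosis genes, 27 were higher with WT than with mutant peptide, with a median of 0.23, and 36 higher with mutant than with scrambled peptide, with a median of 0.26. Without replicate 2 these counts were 18 and 19, and without replicate 1 they were 19 and 33. Without the replicate term limma called 0 in both, with 32 and 33 past an unadjusted p of 0.05. CCNB1 was 0.49 above the mutant (adjusted p = 0.000356) and the mutant 0.38 above scrambled (adjusted p = 0.0011). The NF-kB list had 2 higher and 2 lower calls between WT and mutant, with a median of 0.039, and 17 lower calls of 26 between mutant and scrambled, with a median of −0.38 (13 or 14 lower without a replicate number, and 0 by limma with no replicate term, with 16 past an unadjusted p of 0.05). CXCL8 differed by 0.086 between WT and mutant (95% interval −0.16 to 0.33, adjusted p = 0.735), and CXCL3 by −0.012 (95% interval −0.29 to 0.27, adjusted p = 0.972). Of the 43 HIF targets and glycolysis genes, 6 were lower and 1 higher with WT than with mutant peptide. All genes tested gave 1.69% lower and 2.4% higher there. With mutant against scrambled peptide 3 HIF genes were lower and 1 higher, near the 4.59% and 3.72% of all genes. Without the replicate term limma called 0 of the HIF genes in both. PDK1 was −0.30 (adjusted p = 0.0141, and 0.0565 without WT 1) against the mutant, and the mutant −0.046 against scrambled (adjusted p = 0.705).

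The genes with the largest WT over mutant differences were few and mixed. None of them was called against the mutant without the replicate term. CYP1A1 was 1.38 above the mutant (adjusted p = 0.000652). HMOX1, encoding heme oxygenase, had 1264, 1168 and 1553 with WT, 709, 803 and 814 with mutant and 1159, 977 and 1592 with scrambled peptide. The mutant libraries were the low ones, the WT and scrambled levels overlapped, and the change was 0.77 for WT against mutant (adjusted p = 0.000314) and 0.12 for WT against scrambled (adjusted p = 0.411). IL1A and ABCC9 were also lowest on average with the mutant, with WT above it by 0.74 (adjusted p = 0.0363, and 0.0789 to 0.167 without WT 1, WT 3 or scrambled 2) and 0.66 (adjusted p = 0.0445, and 0.0554 to 0.194 without WT 2, WT 3 or scrambled 3). UBE2S, a ubiquitin-conjugating enzyme of the anaphase-promoting complex, was 0.72 (adjusted p = 0.00774, and 0.0544 without WT 1) above the mutant and 0.65 above scrambled (adjusted p = 0.00405 and 0.149 without the replicate term, and 0.0643 without scrambled 2). In the other direction APOBEC3G, a cytidine deaminase, had 166, 77.7 and 94.7 with WT, 292, 136 and 183 with mutant and 341, 137 and 182 with scrambled peptide. Replicate 1 was the highest of every group, the groups overlapped, and each WT library was below its partners (−0.85 against the mutant, adjusted p = 0.0004). SLC14A1, SLAMF9, DEPP1 and SLC26A5 completed the 5 lowest, at −0.98 (adjusted p = 0.00945, and 0.0708 without WT 1), −0.73 (adjusted p = 0.0456, and 0.0962 to 0.209 without WT 1, WT 2 or scrambled 2), −0.69 (adjusted p = 0.044, and 0.0939 to 0.185 without WT 1, WT 2 or scrambled 2) and −0.68 (adjusted p = 0.0307, and 0.0565 to 0.146 without WT 1, WT 2 or scrambled 2) against the mutant.

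The knockdowns of the Elongins had their own controls and thus share no library with the peptide comparison, although serum and treatment differed. Of 13764 genes tested there, EloB KD changed 4996 (36.3%), 2410 higher (17.5%) and 2586 lower (18.8%), and EloC KD changed 7841 (57%), 3944 higher (28.7%) and 3897 lower (28.3%). Without a replicate term these counts were 2822 (20.5%) and 5844 (42.5%). Over 13074 genes tested in both experiments, 2120 were called for the WT peptide. Of these, 859 were also called in EloB KD (40.5%, against 36.5% of all 13074 genes), which is 18% of the genes called in EloB KD. In 400 of the 859 genes the direction was the same and in 459 it was opposite. EloC KD shared 1338 genes (63.1%, against 57.9% of all), which is 17.7% of those called in EloC KD, 645 in the same and 693 in the opposite direction. The mitosis list had 38 higher calls with the WT peptide, 2 lower and 0 higher in EloB KD (median −0.13), and 7 lower and 1 higher in EloC KD (median −0.18). CCNB1 changed by −0.11 in EloB KD and −0.40 in EloC KD (adjusted p = 0.606 and 0.0534). The NF-kB list, with 14 lower calls for the peptide, had 10 higher and 4 lower in EloB KD and 19 higher and 3 lower in EloC KD. CXCL3 rose by 1.53 and 2.77 in the knockdowns (adjusted p = 0.000868 and 1.02e-05), where it fell with the WT peptide. The list of 43 HIF targets and glycolysis genes had 9 lower and 7 higher in EloB KD and 17 lower and 6 higher in EloC KD. Both directions together, its called share was near that of all genes in each knockdown (36.3% and 57%). With the peptide 20 of these genes were lower and 1 higher. Ribosomal protein genes, 14 higher with the peptide, had 20 lower and 0 higher in EloB KD and 44 lower and 3 higher in EloC KD. CYP1A1, raised by the peptide, changed by 1.3 in EloB KD (adjusted p = 0.00011) and −0.016 in EloC KD (adjusted p = 0.933).

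**Figure D5:**
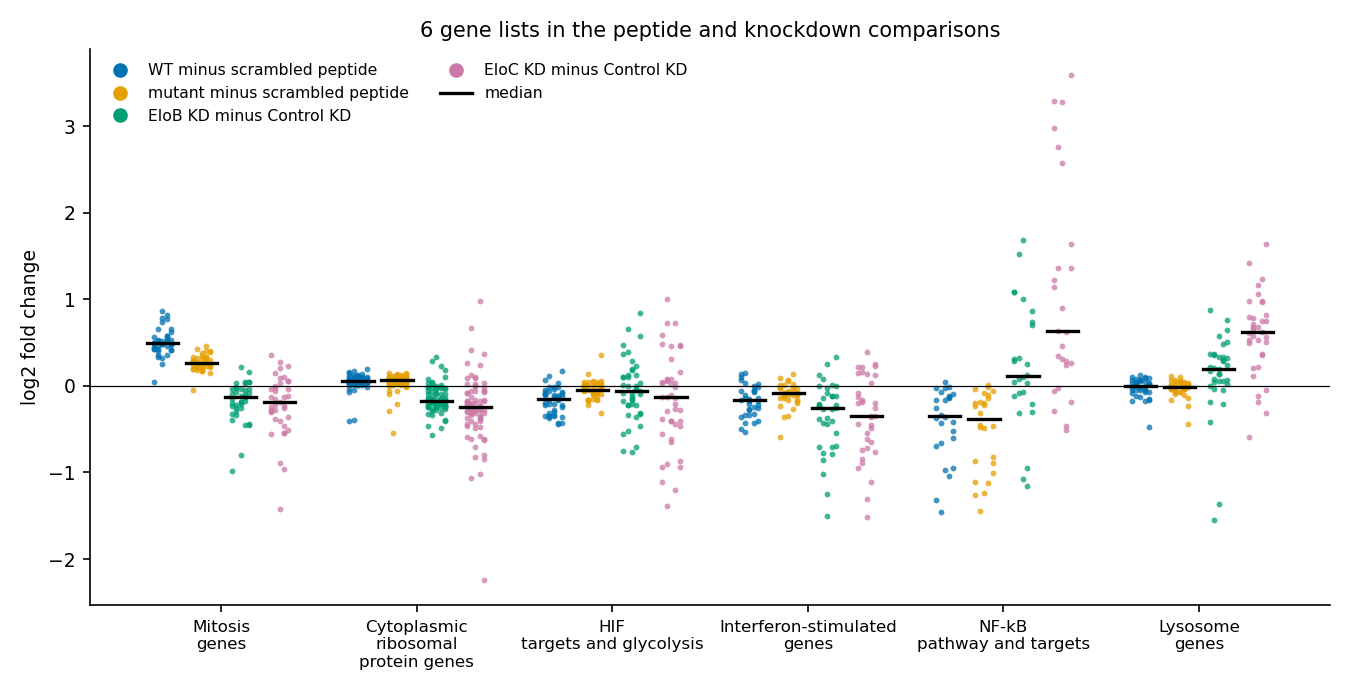
For 6 gene lists, dots are the log2 fold changes of members and bars their medians in 4 comparisons (WT against scrambled peptide, mutant against scrambled peptide, EloB KD and EloC KD against Control KD). The mitosis median is 0.49 with the WT peptide and −0.13 and −0.18 in the knockdowns, and the NF-kB median is −0.35 with the WT peptide and 0.63 in EloC KD.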

How the data were processed

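Poly(A) RNA of PC3 cells was sequenced as stranded libraries, per the labels' protocols. The submitters' processing notes name featureCounts, DESeq2 and hg38 without versions, and the aligner is not given in the sources used here. The authors deposited normalised read counts, used here as a signal without length correction. Read back by the value of 1 read in each library, 100% of values were whole within 0.05 reads, and these reads were used for edgeR and DESeq2. The authors' deposited table of WT against scrambled peptide holds mean normalised counts, log2 fold changes, their standard errors, a test score and p-values, without a header; its columns were identified from their values.

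Here limma 3.58.1 (R 4.3.3, eBayes with trend) was fitted to log2 of the normalised count plus 1 over the 9 peptide libraries, keeping genes whose mean reached 10, with replicate number as a term, since same-numbered libraries deviated together (correlations of deviations 0.254 to 0.715 over 9 pairs, against −0.546 to 0.336 for other pairs). P-values were 2-sided and were adjusted by Benjamini-Hochberg across the 13105 genes, with a threshold of 0.05. For 3 against 3 unpaired libraries an exact permutation p cannot go below 0.1. Swaps within the 3 replicate pairs allow fewer arrangements still, so single genes rest on this model. The knockdown libraries were fitted in the same way and separately. Of the replicates none were near-duplicates (chi-square per degree of freedom 5.04 to 25.7). The fit was tested on simulated data first. Alternatives were no replicate term, the 6 libraries alone, other pseudocounts (0.5 and 5) and filters, TMM and quantile scaling, edgeR 4.0.16 (quasi-likelihood), DESeq2 1.42.0, a threshold of 0.01 and leaving out libraries.

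The members and the 51 gene lists were chosen with earlier results of these data known, so list counts describe and are not independent tests. Genes named are ELOA, ELOB and ELOC, the 15 highest and 15 lowest called fold changes averaging 50 or more in the 6 libraries and moving 1 way in all 3 pairs, the 4 members of each list with the smallest p (all members of the apoptosis and Elongin ligase lists and of lists of 8 or fewer), and the 5 highest and 5 lowest called fold changes of WT over mutant peptide. Some genes that this rule or the marker lists hold are not reported here. Promoter letters were searched in the 250 bases before RefSeq starts. The kB letters were narrowed after a looser form matched most promoters. Gene positions are from GENCODE v29 (GRCh38), which named 12775 of the 13105 genes.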

Additional observations from a re-analysis of the deposited data

How the results depend on the processing

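In the 3 peptide comparisons the calls were fewest without the replicate term. With no replicate block the paired analysis became an unpaired one, and limma called 188 genes for WT against scrambled peptide (110 higher, 78 lower, 36 of at least 1.5-fold), 0 for WT against mutant, 0 for mutant against scrambled (898 and 1142 at an unadjusted p of 0.05), 2822 for EloB KD and 5844 for EloC KD. The lower counts of the lists were then 0 for HIF, 2 for NF-kB and 4 for the metalloproteinase genes. With edgeR and no replicate block these were 198, 108, 90, 40, 0 and 0 genes, and 0, 4 and 4 list members. On the whole reads, edgeR with the block called 2114 genes. DESeq2 with the block called 1381 genes, 677 of them lower and 75 of at least 1.5-fold, and a mean of at least 50 left 87 of at least 1.5-fold. At an adjusted p of 0.01 the counts were 980 called, 493 higher, 487 lower and 86 of at least 1.5-fold, 155 for WT against mutant, 432 for mutant against scrambled, 10 for HIF and 5 for the metalloproteinase genes. The 6 libraries alone gave 346 calls for WT against mutant. Leaving out a library or a replicate number gave 730 to 2124 genes called, 333 to 1040 higher, 397 to 1084 lower, 82 to 153 of at least 1.5-fold, 125 to 658 for WT against mutant, 209 to 1266 for mutant against scrambled, 2837 to 4056 for EloB KD and 5326 to 7637 for EloC KD. List counts then ranged from 8 to 26 (HIF), 10 to 14 (NF-kB) and 5 to 10 (metalloproteinase genes), and stayed at 38 for mitosis. Leaving out libraries also made their number smaller, and the cause of these moves was not tested.

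Of 343 named genes, 147 lost the call with no replicate block and 58 without replicate 2, while all 343 stayed on the same side of the threshold under TMM scaling and under each pseudocount. Those that were called kept their direction in every alternative that tested them (a mean of at least 50 covered 324 of the 343), whereas some that were not called changed sign, such as ELOB, from −0.0069 to 0.096. TMM and quantile scaling moved the share of higher calls from 49.2% to 49.0% and 48.1%. Depth limits genes with low counts, whose fold changes are compressed by the added count of 1.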

Other observations

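Nutrient and stress lists held changes in both directions. Of 39 genes of ATF4 targets and amino acid supply, 6 were higher and 4 lower with the WT peptide (25.6% called, against 16.2% of all genes, and 5 and 1 without replicate 2). SLC7A11, the cystine transporter subunit, had 3699, 3472 and 4835 normalised counts with WT and 3221, 2715 and 3258 with scrambled peptide (log2 fold change 0.37, SE 0.065, adjusted p = 0.00132 and 0.175 without the replicate term), and SLC7A5, an importer of large neutral amino acids, changed by 0.27 (adjusted p = 2.6e-05). ATF5 changed by 0.28 (adjusted p = 0.00085 and 0.0507 without the replicate term) and NUPR1, a stress-induced chromatin protein gene, by −0.29 (adjusted p = 0.00121 and 0.5 without the replicate term, and 0.0547 without replicate 2). Among 29 NRF2 targets 6 were higher and 4 lower (34.5% called, and 3 and 1 without replicate 2), with GCLM, a subunit of the enzyme that starts glutathione synthesis, at 0.27 (adjusted p = 0.000771 and 0.118 without the replicate term) and GSR, glutathione reductase, at −0.26 (adjusted p = 0.000105 and 0.12 without the replicate term). Of 8 metallothionein and zinc transporter genes, 1 was higher and 1 lower (25% called). The zinc exporter SLC30A1 changed by 0.25 (adjusted p = 0.0107 and 0.155 without the replicate term, and 0.0555 to 0.119 without WT 3 or scrambled 2) and MT1F, one of a family of close paralogs, by −0.56 (adjusted p = 0.00563 and 0.408 without the replicate term, and 0.0654 without scrambled 2).

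Other lists had more lower than higher calls, some at a called share near the 16.2% of all genes. Among 22 YAP and TAZ targets 7 were lower and 0 higher (31.8% called, 2 lower without replicate 2, and 0 by limma with no replicate term, with 3 at an unadjusted p of 0.05), with AMOTL2 at −0.39 (adjusted p = 2.69e-05 and 0.114 without the replicate term), TGFB2 at −0.37 (adjusted p = 0.0101 and 0.569 without the replicate term, and 0.0581 to 0.0812 without WT 2, WT 3 or scrambled 3) and CCN1 at −0.18 (adjusted p = 0.0124 and 0.438 without the replicate term, and 0.0686 to 0.0975 without WT 2, scrambled 1 or scrambled 2). Of 35 lysosome genes 5 were lower and 1 higher (17.1% called, with a median change of −0.00097, and 2 and 0 without replicate 2), including TFEB, the transcription factor of lysosome genes, at −0.47 (adjusted p = 0.0109 and 0.448 without the replicate term, and 0.0515 to 0.0661 without WT 3, scrambled 1 or scrambled 3) and GRN, progranulin, at −0.17 (adjusted p = 0.000795 and 0.103 without the replicate term). Of 9 glucocorticoid and serum-responsive genes 4 were lower and 0 higher (44.4% called, 2 lower without replicate 2), among them SGK1 at −0.21 (adjusted p = 0.0216 and 0.27 without the replicate term, and 0.0807 to 0.113 without WT 2, WT 3, scrambled 2 or scrambled 3). Membrane repair and endocytosis genes gave 6 lower and 3 higher calls among 37 (24.3% called, median −0.0045, and 3 and 1 without replicate 2), with ANXA2, a membrane-binding annexin, at −0.27 (adjusted p = 0.000223) and AP2B1, an adaptor subunit of clathrin coats, at 0.21 (adjusted p = 0.000246 and 0.0794 without the replicate term). In the MYC and MAX network 4 of 11 genes were lower and 1 higher (45.5% called, and 1 and 0 without replicate 2), with MXD3, a MAX partner, at 0.48 (adjusted p = 0.00518 and 0.202 without the replicate term, and 0.0747 without scrambled 2) and MXD4 at −0.17 (adjusted p = 0.0197 and 0.514 without the replicate term, and 0.0655 to 0.135 without WT 2, scrambled 2 or scrambled 3). Of 26 cadherin, claudin and EMT genes 3 were lower and 1 higher (15.4% called, while limma called 0 without replicate 2, with 4 at an unadjusted p of 0.05), with CDH2, N-cadherin, at −0.14 (adjusted p = 0.0342 and 0.453 without the replicate term, and 0.0991 to 0.243 without WT 2, WT 3, scrambled 2 or scrambled 3) and CDH11 at −0.14 (adjusted p = 0.00987 and 0.207 without the replicate term, and 0.059 to 0.074 without WT 2, scrambled 2 or scrambled 3).

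Growth-related lists moved little. Ribosome biogenesis factors had 6 higher and 1 lower calls among 39 (17.9% called, against 16.2% of all genes, and 2 and 0 without replicate 2), with GAR1, a pseudouridylation complex protein, at 0.18 (adjusted p = 0.0119 and 0.425 without the replicate term, and 0.0626 to 0.0635 without scrambled 1 or scrambled 2) and NPM1, nucleophosmin, at 0.16 (adjusted p = 0.00134 and 0.0573 without the replicate term). Of 35 translation initiation factors 2 were higher and 1 lower (8.57% called), namely EIF3J at 0.16 (adjusted p = 0.00234 and 0.103 without the replicate term), EIF4G2 at 0.16 (adjusted p = 0.0016 and 0.348 without the replicate term, and 0.0505 without replicate 2) and EIF3D at −0.17 (adjusted p = 0.0018 and 0.514 without the replicate term). Of 23 fatty acid synthesis genes only ELOVL5 was called (4.35%), at 0.10 (adjusted p = 0.0276 and 0.53 without the replicate term, and 0.0541 to 0.134 without WT 1, WT 2, scrambled 1, scrambled 2 or scrambled 3).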
